A study of Mus musculus with 14 samples.

Results

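A set of 462 PRDM16 regions of the mouse heart at E13.5 (embryonic day) had a higher signal in the right ventricle (RV) than in the left ventricle (LV), out of 17587 regions in all. They were chosen by the signal itself. The mean of the authors' RV and LV values was at least 8 normalized reads, RV exceeded LV by 75% or more, and the region overlapped no peak of the Prdm16 conditional knockout by 1 bp or more. Of the 9209 regions that reached the minimum mean, 462 (5.02%) passed the ratio and 8747 did not. With the ratio turned round, 512 regions (5.56%) were higher in LV by as much. PRDM16 binding was measured by chromatin immunoprecipitation and sequencing (ChIP-seq) in C57BL/6 mice. The RV and LV groups were wild type (labelled Mock for genetic manipulation), with 2 PRDM16 libraries each and 10 to 12 ventricles pooled per library. Whole ventricles without atria gave 1 library of the Prdm16 conditional knockout (Prdm16cKO) and 2 wild-type (WT) libraries, with 3 hearts pooled in each. The labels do not say in which cells Prdm16 was deleted. All groups were at E13.5, and 7 of the 14 samples are inputs, whose values are not used here.

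PRDM16, a transcription factor with zinc fingers, binds DNA and recruits chromatin regulators, and in the heart it is known as a factor of the compact myocardium, the outer muscle layer of the ventricle. The ventricles have separate origins: the left arises mainly from the first heart field, marked by Tbx5 and Hand1, and the right mainly from the second heart field, marked by Isl1, Mef2c and Hand2. A region of higher signal in 1 ventricle can hold more PRDM16 per cell or come from more cells that carry it, and in tissue these cannot be told apart.

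Sequence was examined only where a summit lay at a listed transcription start site, a small part of the 462 regions. The sequence under the rest was not examined. In 19 of the 462 regions the summit fell from 250 bases before to 30 bases after a start listed for a protein-coding gene by RefSeq (GRCm38.p6). Starts were listed on the chromosomes of 447 of the 462 regions. They were also listed on those of 8411 of the 8747 other regions of the minimum mean, which had 603 such windows. The windows of 4 of the 19 are printed 5′ to 3′ because their genes belong to the lists of muscle, signalling and transcription factor genes described below. Eno3 (chr11:70656926-70657205, plus strand) encodes the muscle form of enolase, Meis1 (chr11:19018940-19019219, minus strand) a homeobox factor, Maml3 (chr3:52104977-52105256, minus strand) a coactivator of Notch signalling, and Myl7 (chr11:5898753-5899032, minus strand) the atrial myosin light chain. Capitals mark, on either strand, the letters AGATAA for GATA factors, AGGTGTG for T-box factors and GGAATG for TEAD factors, the E-boxes with CAGCTG, those with CATCTG and those with CACGTG, and the MEF2 motif (CTA and TAG with any 4 bases between), the MEF2 site with A or T within and the CArG box of SRF, which overlap in part.
Eno3: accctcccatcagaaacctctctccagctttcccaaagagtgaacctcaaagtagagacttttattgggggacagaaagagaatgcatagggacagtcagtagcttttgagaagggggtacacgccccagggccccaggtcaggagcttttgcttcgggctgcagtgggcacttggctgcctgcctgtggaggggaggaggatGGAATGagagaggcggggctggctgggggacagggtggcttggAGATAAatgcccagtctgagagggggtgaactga
Meis1: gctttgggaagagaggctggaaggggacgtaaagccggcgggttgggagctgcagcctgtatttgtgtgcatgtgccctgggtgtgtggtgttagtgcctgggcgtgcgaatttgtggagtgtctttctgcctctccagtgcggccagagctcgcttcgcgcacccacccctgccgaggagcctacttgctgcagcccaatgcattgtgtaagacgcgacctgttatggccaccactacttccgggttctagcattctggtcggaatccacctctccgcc
Maml3: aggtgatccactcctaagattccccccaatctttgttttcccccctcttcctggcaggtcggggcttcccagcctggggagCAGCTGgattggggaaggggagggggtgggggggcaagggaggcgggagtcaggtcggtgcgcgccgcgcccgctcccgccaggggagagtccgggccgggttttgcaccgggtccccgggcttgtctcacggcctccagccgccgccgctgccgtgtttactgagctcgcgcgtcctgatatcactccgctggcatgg
Myl7: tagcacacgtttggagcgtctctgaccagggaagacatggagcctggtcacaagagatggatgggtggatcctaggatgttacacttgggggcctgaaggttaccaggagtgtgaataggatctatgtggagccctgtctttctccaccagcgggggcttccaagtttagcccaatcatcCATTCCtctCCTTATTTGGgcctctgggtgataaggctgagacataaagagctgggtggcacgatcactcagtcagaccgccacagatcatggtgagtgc

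The Eno3 window held a TEAD and a GATA match, the Maml3 window an E-box, the Myl7 window a CArG box and a TEAD match, and the Meis1 window none of these letters. A TEAD match was in 6 of the 19 windows (31.6%), against 108 of 603 windows under the other regions of the minimum mean (17.9%) and 12.9% of all 21262 windows. A GATA match was in 3 of 19 (15.8%), 47 of 603 (7.79%) and 9.35% of all, and CAGCTG in 4 of 19 (21.1%), 103 of 603 (17.1%) and 14.1%. A CArG box was in 1 of 19, 12 of 603 (1.99%) and 1.47% of all. CATCTG and CACGTG were each in 1 of the 19 windows, against 76 (12.6%) and 66 (10.9%) of 603. A T-box match was in 0 of 19 (19 of 603, 3.15%), as was the MEF2 motif (29 of 603, 4.81%). The short letters AAGTG (NKX2) were in 8 of 19 (42.1%), against 37.6% of 603 and 43.4% of all. The looser pattern of CC and GG with any 6 bases between, of which the CArG box is a special case, was in 17 of 19 and in 89.7% of the 603. With 19 windows these shares are descriptions and were not tested. The median GC content was 57.9% in the 19 windows (53.2 to 70.7%), 63.6% in the 603 and 56.1% in all.

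The values that follow are normalized reads, the reads of a library times a factor that evens out depth. Reads of each library were worked out from the deposited RV and LV values, with the libraries of a ventricle called A and B, because the files do not say which is replicate 1 or 2 of the labels. In each ventricle A is the library with the smaller factor. The letters therefore do not match libraries across ventricles. Reads within the 17587 regions numbered 281797 and 267808 in RV libraries A and B, and 330443 and 184244 in LV libraries A and B. The 462 regions held few reads: the median was 17 and 15 in RV libraries A and B, and 10 and 4 in LV libraries A and B. In LV library B 78 of the 462 had 2 reads or fewer and 6 had none.

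The 462 regions were mostly weak, and their ratios mostly lay near the limit. RV over LV ran from 1.7504 to 4.88 with a median of 1.97. It was at least 2 in 208 regions (45.0%) and at least 3 in 13. The mean of RV and LV ran from 8.004 to 68.4 with a median of 10.9, against 13.51 in the 8747 other regions and 10.7 in the 512 regions higher in LV. Just inside the limit were regions nearest to Slc38a10, Kcnj6 and Klf7 with ratios of 1.7504, 1.7506 and 1.7511, and just outside it were regions nearest to Eln, Zfp623 and Mmaa, with ratios of 1.7494, 1.7481 and 1.7474.

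**Figure D1:**
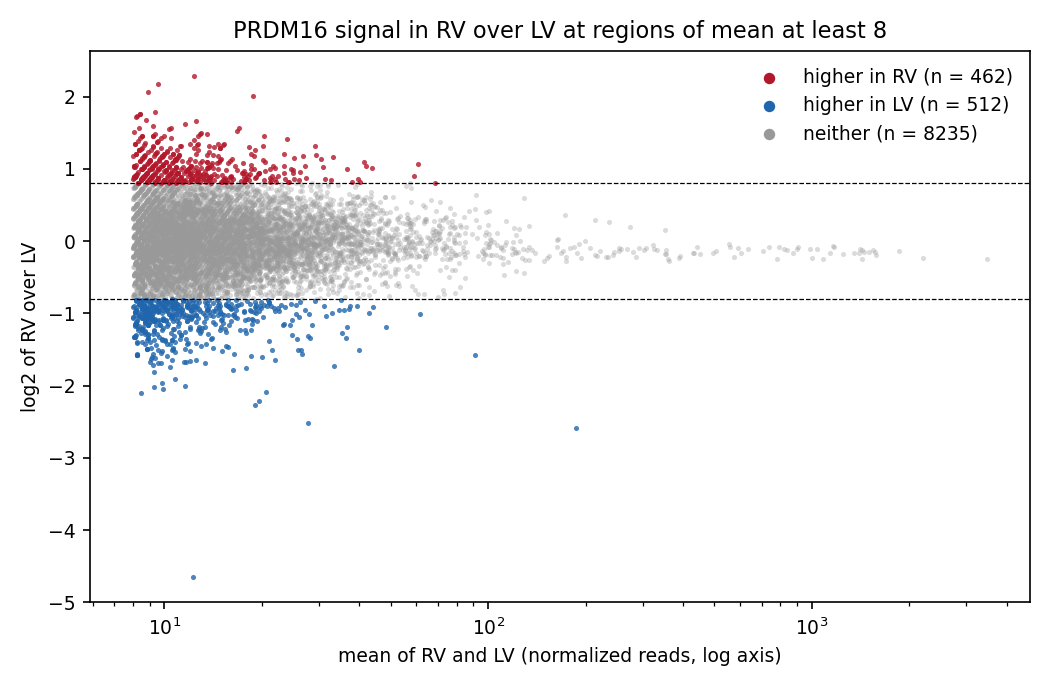
The log2 of RV over LV is plotted against the mean of RV and LV (normalized reads, log axis) for the 9209 regions of the minimum mean, 1 point per region, with dashed lines at an excess of 75% either way. The 462 regions higher in RV and the 512 higher in LV crowd at the left, where the mean is low.

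The share of regions past the limit was smaller at higher means, on both sides. Of 2270 regions with a mean of 8 to under 10, 8.06% were higher in RV and 9.34% higher in LV. Of 938 regions with a mean of 32 or more, 1.28% (12 regions) were higher in RV and 1.92% (18 regions) in LV. The part of counting error in the list was not tested.

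**Figure D2:**
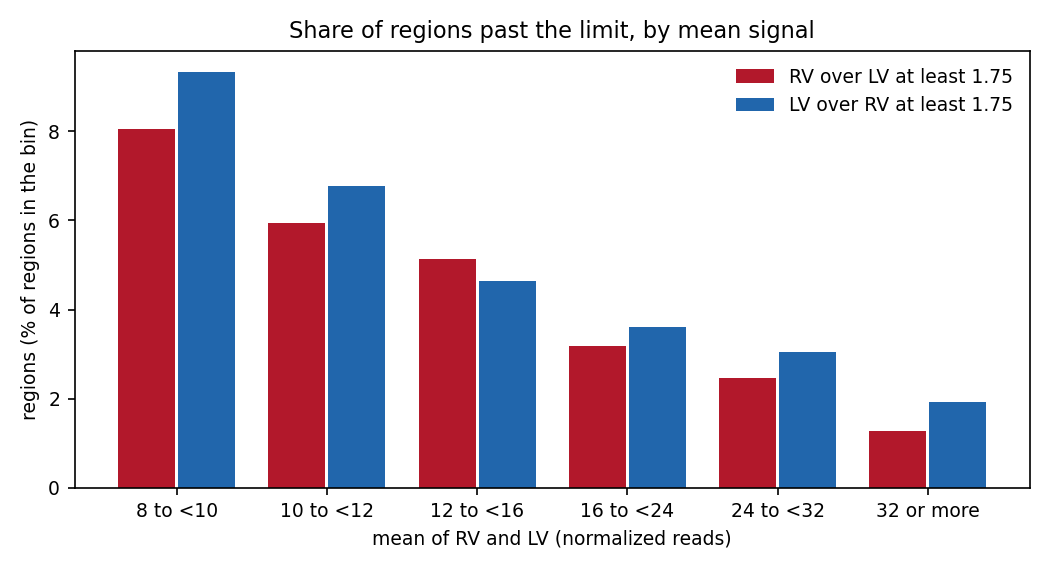
Bars give the share of regions (%) with RV at least 75% above LV and with LV at least 75% above RV, in bins of the mean of RV and LV (normalized reads). Both shares are largest in the lowest bin, at 8.06% and 9.34%, and smallest in the highest, at 1.28% and 1.92%.

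Both RV libraries lay above both LV libraries in 422 of the 462 regions (91.3%), and in 17.4% of all regions of the minimum mean. The rule used the same values, so this share describes the choice of regions. In the other 40 the libraries overlapped. The RV libraries differed by more than 2-fold in 33 of the 462 regions and the LV libraries in 130. The authors' deposited table gave 19 of the 462 regions a p under 0.05. These 19 were all the regions of the minimum mean with such a p and RV higher, or 0.206% of 9209. Over all 17587 regions the share was 0.142%. The p belongs to the RV and LV contrast that the rule used, so the 19 also describe the choice of regions. The authors' smallest p among the 462 was 0.00271, at Opcml. Their smallest adjusted p among the 462 was 0.9998, and over all regions 0 (0%) had an adjusted p under 0.05. With 1 library left out and the same limits applied, 320 of the 462 passed without RV library A, 322 without RV library B, 300 without LV library A and 245 without LV library B. In all 4 cases 96 regions (20.8%) passed, with a median ratio of 2.29. These 96 were chosen by the same values again.

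The regions of highest mean lay near genes of varied function, among them an ion channel, kinases and parts of BMP and Wnt signalling. The highest, chr16:94721194-94722186, lay 23300 bp outside Kcnj6, an inwardly rectifying potassium channel. It had 72.7 and 100.3 normalized reads in RV libraries A and B, and 63.3 and 35.2 in LV libraries A and B (ratio 1.7506). Next was chr6:127311290-127312162, 135066 bp from Parp11, an ADP-ribosyltransferase, with 84.9 and 78.1 in RV and 30.5 and 46.9 in LV (2.09). The ventricles did not overlap at either, although the lower RV value at Kcnj6 was close to the higher LV value. The third, 149930 bp from Bambi, a pseudoreceptor that dampens TGF-beta and BMP signalling, had 70.1 and 82.0 in RV and 49.1 and 32.2 in LV (1.86).

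A region near Dyrk2, a protein kinase, followed (chr10:118799632-118800328, 55801 bp outside), with 51.1 and 64.6 in RV against 30.5 and 26.4 in LV (2.02). It passed with any library left out. Of the 4 regions of the minimum mean assigned to Dyrk2, 2 others were higher in LV by 75% or more, so the gene carried regions of both kinds. A region inside Afap1l2, which encodes an actin-associated adaptor (chr19:56974132-56974681), had 45.9 and 65.6 in RV and 29.8 and 21.98 in LV (2.13), and it also passed with any library left out. The region 9331 bp from Ror2, a receptor of Wnt5a (chr13:53099705-53100548), had 50.2 and 46.3 in RV and 23.1 and 24.9 in LV (1.99). Its libraries were close within each ventricle, and all 4 regions assigned to Ror2 had RV above LV, with a median log2 of 0.36. The other regions among the 10 of highest mean lay near Man1a2, a mannosidase of glycoprotein processing (ratio 2.05), Clmn (1.77), Smad6, an inhibitor of BMP signalling (1.82), and Eno3 (1.77).

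The largest ratios belonged to regions with few LV reads. The region 141478 bp from Rchy1, a ubiquitin ligase (chr5:91807101-91807714), had 21.7 and 18.3 in RV and 4.47 and 2.93 in LV, a ratio of 4.88. A region inside Rps6kc1 (chr1:190819143-190819613) had 13.9 and 16.4 in RV and 5.95 and 0 in LV (4.49), where 0 means that no read was counted in LV library B. A region inside Tnik, a kinase of Wnt signalling (chr3:28553782-28554260), had 10.4 and 17.4 in RV and 2.98 and 2.93 in LV (4.16). In these 3 the ventricles were well apart, on 12 to 25 reads in an RV library and 0 to 8 in an LV library. Opcml, a neural adhesion protein of the IgLON family, followed with 31.2 and 28.0 in RV and 3.72 and 10.3 in LV (4.02), and this region was the only one of the 9209 assigned to the gene. The rest of the 10 largest ratios, from 3.18 to 3.45, came from regions nearest to Slitrk5, a neuronal membrane protein, Zmiz1, a transcriptional coactivator, Nfatc2, a calcium-regulated transcription factor, Kcnh1, a potassium channel, Rbms3, an RNA-binding protein, and Sorcs1, a sorting receptor. The 10 comprised 7 regions inside protein-coding genes and 3 far from any such gene. A ratio can rest on 1 library: the region 67114 bp from Slitrk6 had 31.8 in RV library B but 5.20 in RV library A, against 5.21 and 5.86 in LV.

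**Figure D3:**
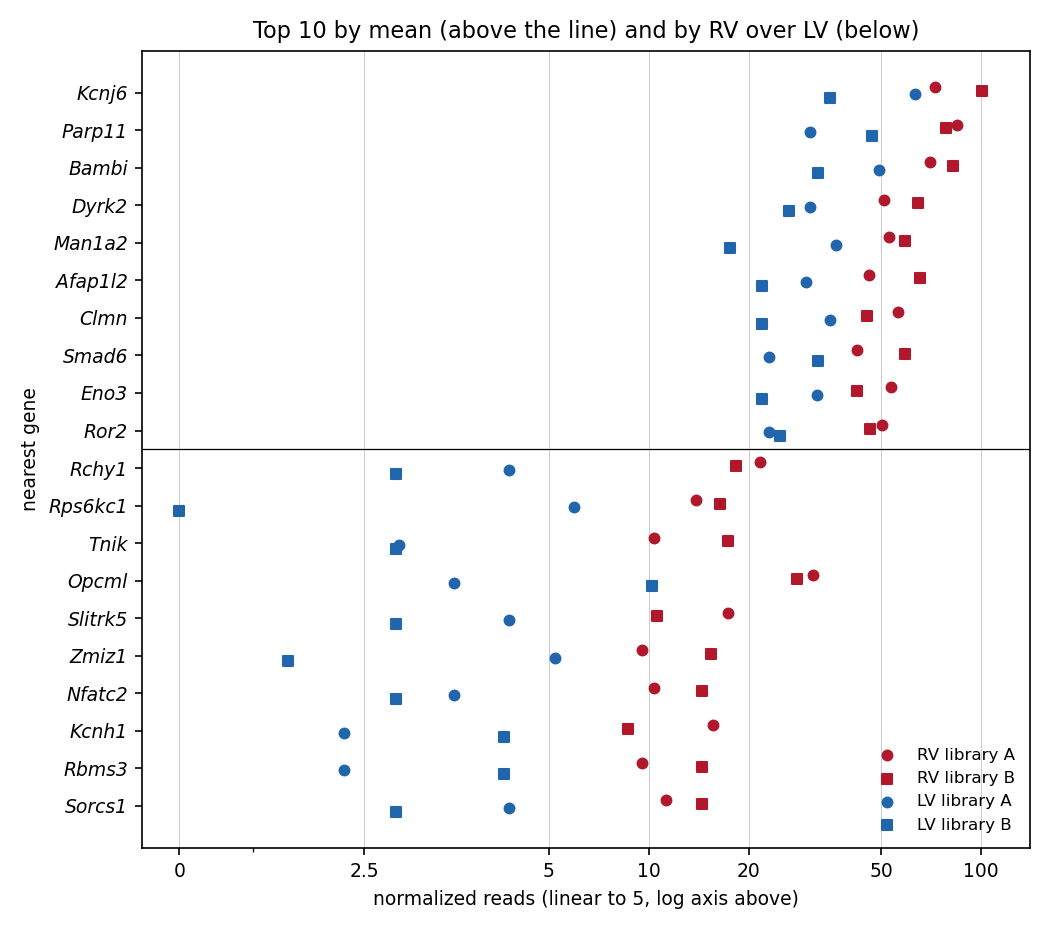
Normalized reads (axis linear to 5 and logarithmic above) are shown for each RV and LV library at the 10 regions of highest mean and the 10 of highest RV over LV, named by nearest gene. In all 20 both RV points lie to the right of both LV points, and in the lower block the LV points lie at or below 10.3.

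Cardiac transcription factor genes were the list with the most regions. Lists of 473 genes were drawn up with results of these data known, so their counts are descriptions. In all, 49 of the 462 regions (10.6%) were nearest to a gene of any of 24 lists, against 800 of the 8747 others (9.15%). The cardiac transcription factors had 11 of the 462 regions (2.38%) at 9 genes, against 119 of the others (1.36%), and 11 regions higher in LV.

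At Tbx20, a T-box factor of ventricular muscle, a region 100365 bp away (chr9:24874496-24875082) had 28.6 and 22.2 in RV and 14.1 and 5.86 in LV (2.46). It was 1 of 6 regions assigned to Tbx20, of which 3 had RV above LV. The Meis1 region printed above had 16.5 and 26.05 in RV and 10.4 and 8.79 in LV (2.15), and all 4 Meis1 regions had RV above LV (median log2 0.48). Meis2, a related homeobox factor, had 25.1 and 14.5 in RV and 2.23 and 13.2 in LV (2.47) at a region inside the gene, so that 1 LV library was close to the RV values; all 4 of its regions had RV above LV (median log2 0.51). Foxp1, a forkhead factor, had 2 of the 462 regions among its 8 (ratios 2.62 and 1.78). Single regions lay at Smyd1, a muscle methyltransferase (1.85), Gata4, a zinc-finger factor (1.84), Zfpm2, a GATA cofactor (2.45), and Mef2a, a MADS-box factor (1.80), whose libraries overlapped. Over all 130 regions of these factors the median log2 of RV over LV was 0.04, beside -0.01 over all 9209. The counts and medians at Tbx20, Meis1 and Meis2, and the median over the 130, include the regions chosen by the rule.

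Genes of right ventricular and second heart field identity contributed 1 region. That list of 13 genes had 22 regions of the minimum mean, of which 1, at Smyd1, was among the 462 (0.216%, against 0.240% of the others) and 3 were higher in LV (median log2 0.06). The left ventricle list had 0 of the 462 regions among its 10 (0.114% of the others) and 3 higher in LV (median log2 -0.33). A count of 0 of 462 allows a share of up to 0.649%. The outflow tract and semilunar valve list also had 0, among 43 regions of the minimum mean (0.492% of the others). In that list 6 regions were higher in LV, and the median log2 was -0.08. The trabecular list had 1, at Slit3, a secreted guidance ligand, among 42 (0.216%, against 0.469% of the others; median log2 -0.24). The compact myocardium list had 4 among 44 (0.866%, against 0.457%; median log2 0.03). Those 4 lay at Tbx20, at Casz1, a zinc-finger factor (chr4:148878795-148879580, 24.2 and 27.01 in RV, 11.9 and 16.1 in LV), at Ccnd2, a D-type cyclin, 122898 bp away (2.04), and at Dkk3, a secreted protein of the Dickkopf family (1.84). Casz1 also carried a region higher in LV.

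Signalling genes had regions at ligands, receptors and intracellular components. In the TGF-beta and BMP list these were Smad6 and Smad7, both inhibitory SMADs, and Inhba and Inhbb, subunits of activins, which made 4 regions (0.866% of the 462, against 0.686% of the others) beside 3 higher in LV. The Smad6 region (chr9:64044869-64045780, 23247 bp outside) had 42.4 and 58.8 in RV and 23.1 and 32.2 in LV, but of 11 regions assigned to Smad6 5 had RV above LV and 1 was higher in LV by 75% or more. In the Notch list the 4 regions (0.866% against 0.343%) lay at Mib1, the ubiquitin ligase that activates Notch ligands (1.79), at Maml3 (1.94), which also had a region higher in LV, and, with 2 regions, at Hes1, a Notch target and repressor (1.76 and 2.24). The first Hes1 region had 21.7 and 18.3 in RV and 17.9 and 4.40 in LV, and the second 11.3 and 11.6 in RV and 8.19 and 1.47 in LV, so that the LV libraries stood apart there. In the Wnt list the regions were those of Ror2 and Dkk3 (0.433% against 0.332%). Growth factor genes had 2, at Igf1r and Fgfr2, receptors of insulin-like and fibroblast growth factors (ratios 1.7511 and 1.87), which is 0.433% of the 462 against 0.560% of the others, with a median log2 of -0.07 over the list. Igf1r also had a region higher in LV.

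Guidance and adhesion genes were represented singly. The axon guidance list had 7 regions (1.52%, against 0.972% of the others) beside 10 higher in LV, at Epha4, Epha3 and Epha7, ephrin receptors, and at Slit3, Robo1, Sema6d and Plxna4. The Epha4 region lay 708748 bp from the gene and had 27.7 and 29.9 in RV and 16.4 and 11.7 in LV (2.01). At Sema6d RV libraries A and B had 15.6 and 12.5, and LV libraries A and B 0.744 and 14.7, so the ratio of 1.78 rested on 1 LV library. Of 5 regions of Epha7, 1 had RV above LV and another was higher in LV by 75% or more. Neural adhesion and synapse genes had 3 (Opcml, Lsamp and Sorcs1; 0.649% against 0.697%) and cadherins 3 (Pcdh7, Cdh8 and Cdh13; 0.649% against 0.526%), of which Cdh13 also had a region higher in LV.

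Muscle and metabolic genes had a few regions close to the gene. Eno3 had 53.7 and 42.4 in RV and 32.01 and 21.98 in LV (chr11:70655877-70657445, ratio 1.77). The sarcomere list had 3 regions (0.649% against 1.02%): 2 at Myl7, 1 of them at its promoter with 9.53 and 13.505 in RV and 3.72 and 8.79 in LV (1.78), and 1 in Neb, a thin-filament protein (2.20), which also had a region higher in LV. Calcium handling and ion channel genes had 3 (0.649% against 0.777%), at Casq1, a calcium-binding protein of the sarcoplasmic reticulum (1.81), Atp2a2, its calcium pump (1.86), and Kcnq1, a potassium channel (2.19). Kcnq1 had RV above LV in 3 of 10 regions, and 1 of the 10 was higher in LV by 75% or more. Glycolysis and hypoxia genes had 2 (0.433% against 0.252%), Eno3 and Slc2a1, the glucose transporter GLUT1, at a region 44477 bp away with 27.7 and 25.1 in RV and 14.1 and 7.33 in LV (2.39), although the median log2 over all 3 regions of Slc2a1 was -0.28, with 1 of 3 above 0. Over the glycolysis list 7 of 24 regions had RV above LV (median log2 -0.17). Fatty acid oxidation and brown fat genes had 1 (0.216% against 0.366%; median log2 -0.11), in Ppargc1a, a coactivator of mitochondrial genes (1.96), where 4 of 10 regions had RV above LV.

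Marker genes of other cell types had 2 of the 462 regions. Smooth muscle genes had 1 region (0.216%, against 0.0686% of the others), in Mylk, myosin light chain kinase (1.87). Fibroblast and valve genes had 1 (0.216% against 0.160%), near Col1a1, a collagen (2.21). Endothelial and endocardial, epicardial, erythroid and immune, hepatocyte and conduction system genes had 0 of the 462, with 20, 8, 4, 0 and 21 regions of the minimum mean. These regions made up 0.229%, 0.0915%, 0.0457%, 0% and 0.240% of the others, and 3, 1, 1, 0 and 2 of them were higher in LV. A count of 0 of 462 allows a share of up to 0.649%. The part of these cell types in the result was not tested.

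Most genes had a single region. The 462 regions had 429 nearest genes, and 30 genes had 2 or more of them (63 regions). Nav2, a protein of neurite outgrowth, had 4, all inside the gene, among 8 regions of the minimum mean (median log2 0.49). At the strongest of them, chr7:49557980-49558590, RV libraries A and B had 19.9 and 28.9, and LV libraries A and B 21.6 and 1.47, so that the ventricles overlapped and the ratio of 2.07 rested on LV library B. Tnik had 3 of 6 (median log2 0.71). The medians of Nav2 and Tnik include their regions among the 462, which had RV above LV by the rule. Both regions of Slitrk5 lay far from the gene (204791 and 206883 bp) and next to each other; the stronger, chr14:111887566-111888350, had 32.9 and 35.7 in RV and 16.4 and 8.79 in LV (2.66). Rybp, a Polycomb subunit, had 2 and 1 region higher in LV among 8; the stronger had 21.7 and 36.7 in RV and 7.44 and 13.2 in LV (2.74). Plb1 had 2 of 3 (2.69 and 2.27), both of which passed with any library left out. Of the 429 genes, 40 (9.32%) were also nearest to a region higher in LV, which is 8.25% of the 485 genes of those regions. For comparison, 4926 genes were nearest to a region of the minimum mean, 485 of them to one higher in LV. The overlap was not tested.

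For 113 of the 462 another region of the minimum mean lay within 10000 bp, and the nearest such neighbour had RV above LV in 70 cases (61.9%), with a median log2 of 0.16. Of these 113 neighbours, 8 were themselves among the 462 and so had RV above LV by the rule. For the 137 regions higher in LV that had such a neighbour it was so in 65 (47.4%; median log2 -0.04), and for 2526 other regions in 1265 (50.1%; 0.00). Within 50000 bp the shares were 54.9% of 255, 46.0% of 289 and 49.6% of 4960. Of these neighbours 20 of the 255, 12 of the 289 and 227 of the 4960 were themselves among the 462, with RV above LV by the rule. Neighbours come from the same libraries, and these shares were not tested.

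By location the 462 regions were less often at gene ends and more often far from genes than the other regions, but the regions higher in LV were so too, and the split hung on the libraries. Summits near a gene end (either end of a protein-coding gene, 1000 bp or closer) made up 69 of 462 (14.9%, 95% Wilson interval 12.0 to 18.5%), against 1760 of 8747 others (20.1%, 19.3 to 21.0%). Deeper inside a gene lay 212 (45.9%, 41.4 to 50.4%), against 45.8% of the others, and outside within 50000 bp lay 89 (19.3%), against 19.5%. More than 50000 bp from any protein-coding gene lay 92 (19.9%, 16.5 to 23.8%), against 14.5% (13.8 to 15.3%). Among the 512 regions higher in LV, 14.1% (11.3 to 17.3%) lay at gene ends and 17.97% (14.9 to 21.5%) far from genes, with intervals that overlapped those of the 462. Measured from listed start sites, 53 of 447 summits (11.9%, 9.18 to 15.2%) lay within 1000 bp, against 18.3% (17.5 to 19.1%) of the others, and 51.2% lay more than 50000 bp away, against 40.9%. The intervals cover counting error alone, and regions are not replicates of a ventricle.

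Library composition moved with location. In the 9209 regions, 15.5% and 13.1% of the reads of RV libraries A and B, and 16.03% and 12.2% of those of LV libraries A and B, fell at gene ends. Regions far from genes held 28.0% and 33.6% in RV and 27.8% and 35.6% in LV. These are shares of summed reads, in which regions with many reads weigh most. Per region, the log2 of a library over the mean of the libraries differed less far from genes. Its median there was -0.04 and 0.03 in RV libraries A and B and -0.03 and -0.01 in LV libraries A and B. At gene ends it was 0.07 and -0.12 in RV and 0.10 and -0.11 in LV. In each ventricle library A, the one with the smaller factor, was thus richer in gene ends than library B. Among the 9209 regions, those that passed without LV library A lay at gene ends in 21.3% of cases, against 19.7% of those that did not pass, and without RV library B in 19.0%, against 19.9%. Without LV library B the share was 11.3%, against 20.4%, and without RV library A 13.0%, against 20.3%. The shares far from genes were 14.5% against 14.8% without LV library A, 15.4% against 14.7% without RV library B, 19.3% against 14.5% without LV library B and 20.9% against 14.4% without RV library A. The differences were thus small, or of the other sign, without LV library A or RV library B.

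**Figure D4:**
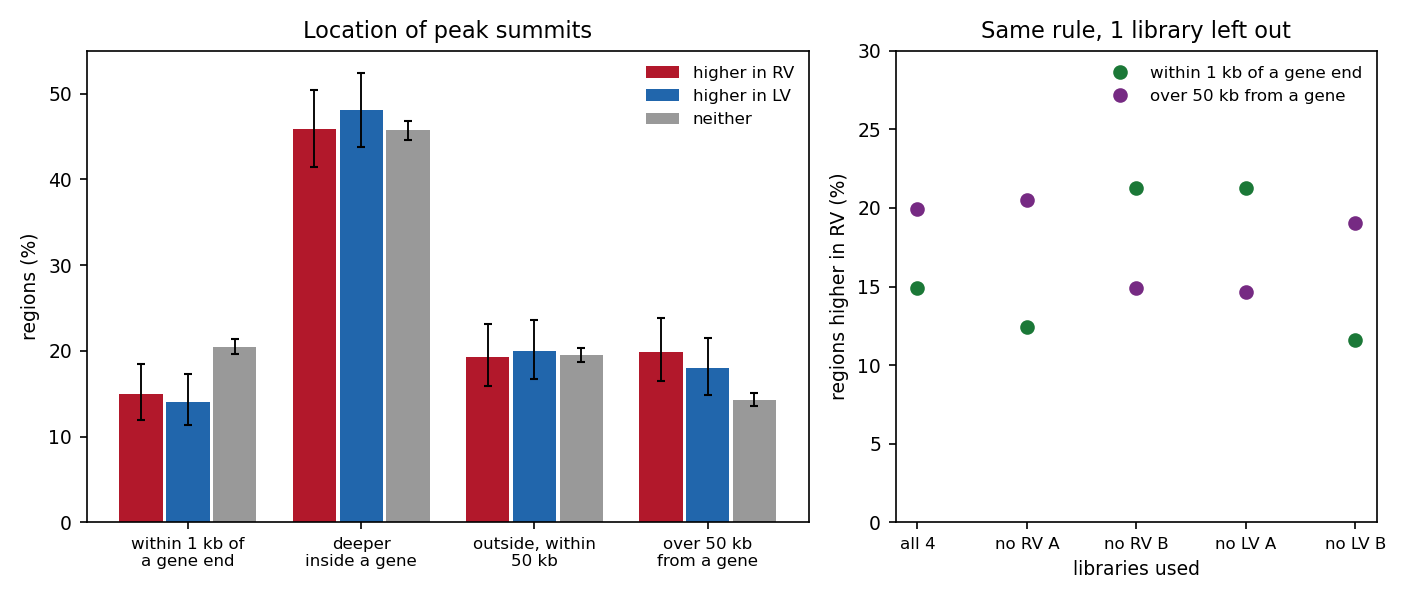
The left panel gives the share of summits (%) in 4 location classes for regions higher in RV, higher in LV and neither, with 95% Wilson intervals; the right panel gives the share of regions higher in RV at gene ends and far from genes with all 4 libraries and with 1 left out, over all regions that then pass. Gene ends hold 14.9% with all libraries, and 11.6 to 21.3% with 1 left out.

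Regions at gene ends, and those outside genes within 50000 bp, had smaller ratios than those deeper inside genes or far from them. The 69 at gene ends reached a ratio of at most 2.73 (median 1.89), and the 92 far from genes reached 4.88 (median 2.04). The 89 outside within 50000 bp reached 2.82 (median 1.91), and the 212 deeper inside reached 4.49 (median 1.98). The rule chose on the ratio, so these values are descriptions. The strongest at gene ends after Eno3 lay at Klhl38 (chr15:58323701-58324548), with 30.3 and 39.6 in RV and 18.6 and 19.0 in LV (1.83). Others lay at Fxr2, an RNA-binding protein (1.76), Tmem107, a protein of the ciliary transition zone (1.76), Casq1 (1.81), Arhgef17, a guanine nucleotide exchange factor (1.76), Otud1, a deubiquitinase (1.90), Abat, a GABA transaminase (1.82), Mms19, a factor of iron-sulfur protein assembly (1.85), and Dhx8, a splicing helicase (1.85). All 10 had both RV values above both LV values, and none passed with every library left out in turn. On chromosome X lay 2 of the 462 regions (0.433%, 0.119 to 1.56%), against 91 of the others (1.04%, 0.848 to 1.28%).

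In WT whole-heart ventricles the regions had a median strength close to that of the others. All 17587 regions are peaks of those ventricles, so a peak there was a condition of entry for both sets. The authors' fold enrichment had a median of 4.69 (quartiles 3.82 and 5.73) in the 462 regions, against 4.77 (3.77 and 6.26) in the 8747 others and 4.65 in those higher in LV. The highest were at Kcnj6 (17.5), Parp11 (17.0), Dyrk2 (14.9), Intu, a planar cell polarity effector (14.3, 751127 bp away), Slitrk5 (13.0), Man1a2 (12.9), Afap1l2 (12.9), Mib1 (12.4), Radil, a Rap effector in adhesion (12.1), and Rybp (11.3). The Intu region, chr3:39779819-39780528, had 45.0 and 45.3 in RV and 19.4 and 20.5 in LV, the libraries of each ventricle close together. Median peak width was 394 bp, against 422 bp in the others and 377.5 bp in those higher in LV. None of the 462 overlapped a knockout peak, and the filter removed no region. It removed none of the 512 regions higher in LV either. Of the 8747 others, 189 (2.16%, 1.88 to 2.49%) overlapped one. A count of 0 of 462 again allows up to 0.649%.

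**Figure D5:**
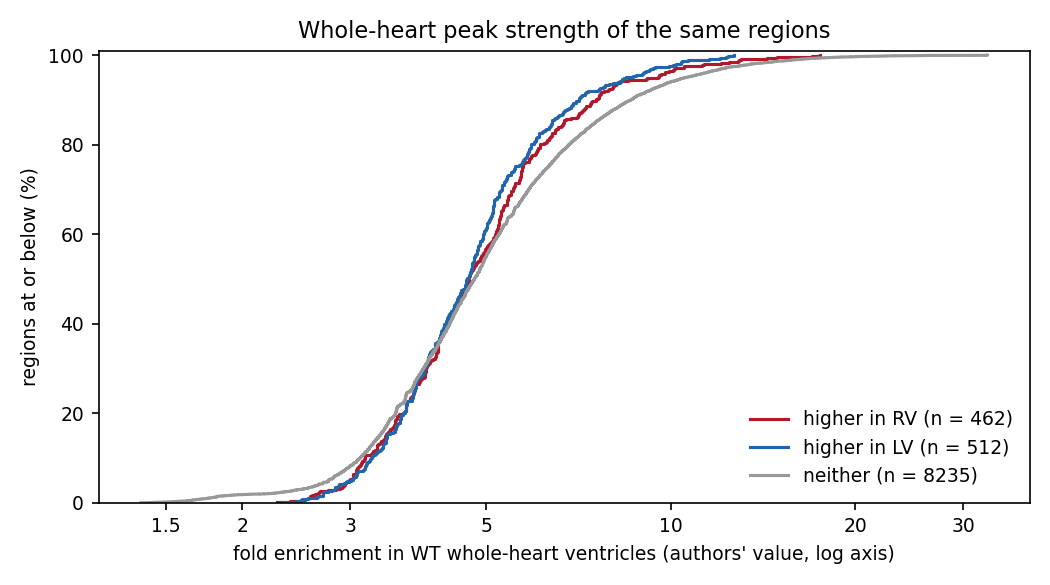
Cumulative share of regions (%) by the authors' fold enrichment in WT whole-heart ventricles (log axis) for regions higher in RV, higher in LV and neither. Medians are 4.69 in regions higher in RV and 4.65 in those higher in LV, and the curve of the regions that are neither reaches farther to the right.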

How the data were processed

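PRDM16 ChIP-seq peak lists of WT and Prdm16cKO ventricles and a table of RV and LV at the WT peaks were used. Per the submitters' processing notes, the tools were DESeq2, HOMER, MACS2 (2.1.1.20160309) and BWA (0.7.12-r1039), and the builds mm10 and GRCm38; their roles are not stated, nor is pooling for the peak lists.

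The deposited RV and LV columns hold normalized signal per ventricle, per the file headers. The deposited log2 columns hold the log2 mean and log2 of RV over LV, and the p-value columns the authors' comparison, whose test is not stated. The deposited peak lists hold a score, a fold enrichment ratio, the -log10 p and -log10 q and the summit per peak.

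Reads were recovered as whole numbers: every RV or LV value is 0.5 plus the average, over its libraries, of reads scaled by a library factor (0.866 and 0.965 in RV, 0.744 and 1.47 in LV), with 1 solution at 100% of regions (tolerance 1e-07). The procedure was tested on simulated data. Summits were assigned to the nearest of 21883 protein-coding genes of RefSeq for GRCm38.p6 by distance to the gene body. Exons and introns were not distinguished. RefSeq start sites were listed for 79.9% of these genes. All 473 list genes were found by symbol. The values of 1 list gene are not reported here.

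No test was run: the rule uses the RV and LV contrast, and regions are not replicates. Shares carry 95% Wilson intervals (scipy 1.17.1), which cover counting error alone. Members and lists were chosen with earlier results of these data known. Regions were named by rank in mean, ratio and whole-heart fold (10 each), by gene list, by number per gene, at gene ends and at the limit. Other settings, and each library left out, were tried. Python 3.11.15, numpy 2.4.6, pandas 2.3.3 and matplotlib 3.10.9 were used.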

Additional observations from a re-analysis of the deposited data

How the results depend on the processing

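No paired analysis was possible because the deposited RV and LV columns carry no replicate number. With 1 library left out, 526 to 888 regions passed, 11.6 to 21.3% of them at gene ends and 14.6 to 20.5% far from genes, with a median whole-heart fold of 4.41 to 5.02 and a median width of 355 to 435 bp. The cause was not tested. A minimum mean of 5 gave 1027 regions (fold 4.06, width 303 bp) and one of 16 gave 86 (11.6% at gene ends, 25.6% far, 6.62, 620 bp). A ratio of 1.5 gave 968 regions, and one of 2 gave 208 (25.5% far, 4.97). A peak -log10 q of at least 5 gave a fold of 5.09 and a width of 405.5 bp. Gene ends within 2000 bp held 18.8%. With genes of any type 19.9% lay at ends, 51.9% deeper inside and 4.76% far, and by start sites 11.9% and 51.2%. Chosen after seeing the data, regions of mean under 12 (275; 4.20, 339 bp), of 12 or more (187; 5.69, 504 bp) and passing without each library in turn (96; 8.33% at ends, 26.0% far, 5.35, 444 bp) were also described. Of 95 values under these settings, 45 moved past the 95% interval or the spread set for them (for counts, by over 1.5 times) and 50 did not. Keeping knockout overlaps changed nothing. The median was 4 reads in LV library B, and how far depth shapes the list was not tested.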

Other observations

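A few of the 462 regions lay very far from any protein-coding gene. More than 500000 bp away were 11 (2.38%, 95% Wilson interval 1.33 to 4.21%), against 75 of the 8747 other regions (0.857%, 0.685 to 1.073%) and 1 of the 512 regions higher in LV (0.195%). This distance was chosen after the values were seen, and the difference was not tested. Among them were the regions of Intu, Epha4 and Cdh8, a cadherin, whose region 536358 bp away had 8.66 and 20.3 normalized reads in RV and 6.70 and 5.86 in LV. Cited2, a transcriptional coactivator of heart development, had a region 1177588 bp away with 13.0 and 15.4 in RV and 12.7 and 2.93 in LV, so that LV library A was close to the RV values.

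Cxcl12, a chemokine of coronary vessel growth, was picked after its values were seen. Its region chr6:117327411-117327756, 146225 bp from the gene, had 25.1 and 18.3 in RV and 7.44 and 11.7 in LV (ratio 2.20) and passed with any library left out. Any other regions nearest to Cxcl12 are not described here, so this region alone gives no direction for the gene.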
